A study of Mus musculus with 12 samples.

Results

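The comparison described here is between 4 wounds treated with Alcaligenes faecalis and 4 wounds treated with vehicle, 8 of the 12 RNA-seq libraries of the series, and its members are all 18218 named genes that passed a filter on low counts. All mice carried the genotype B6.BKS(D)-Leprdb/db, in which the leptin receptor does not work and the animals become obese and diabetic. Full-thickness punch wounds in the back skin were treated and the skin was frozen on day 3, with 4 mice per group, so that each library is read as 1 mouse. Alcaligenes faecalis is a Gram-negative bacterium, and the remaining 4 wounds received Staphylococcus aureus, a Gram-positive skin pathogen. The labels name glycerol only for the vehicle, a buffered saline, and whether the bacteria were also given in glycerol is not stated, so a part of glycerol in the differences cannot be told apart from that of the bacterium. The sources used here do not give age, sex or the part of the wound taken.

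The 8 libraries held 42.2 M to 71.3 M (mega) estimated counts. Vehicle replicate 3 stood apart from the other libraries: on the first principal component, which took 37% of the variance of the 8, it lay at -81.4 and the others between -15.2 and 27.8. Its summed level of 16 adipocyte genes was 23700 CPM (counts per M of library size, scaled by TMM) against 4970 to 8510 CPM in the other 7 libraries, and its summed level of 23 neutrophil genes was 1220 CPM against 3640 to 14100 CPM. Counts that moved markedly when it was left out are given both ways. Keratinocyte markers were present in every library: the 12 basal keratinocyte genes, all above 0 in all 8 libraries, summed to 610 to 1170 CPM in A. faecalis wounds and 1250 to 1840 CPM in vehicle wounds.

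Wounds close as keratinocytes at the margin loosen from their neighbours and crawl over a provisional matrix. Matrix metalloproteinases are secreted or membrane-bound enzymes that cut that matrix; the stromelysins, collagenases and macrophage elastase are induced in injured skin, and their proteolysis is known to persist in diabetic wounds. Epidermal growth factor receptor ligands drive this migration, laminin-332 and its integrin receptors are the track it uses, and desmosomes and gap junctions are taken apart and rebuilt along the way.

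Of the genes tested, 2 passed the test, 0.0110% of all: Mmp10 fell and Colq rose with A. faecalis. Genes were tested with edgeR's quasi-likelihood F test, with p-values adjusted by Benjamini-Hochberg over every gene tested and called under 0.05. At an unadjusted p under 0.05 there were 1399 genes (7.68% of those tested), 820 of them lower with A. faecalis (4.50%) and 579 higher (3.18%). The A. faecalis libraries lay entirely below the vehicle libraries in 466 genes (2.56%) and entirely above them in 272 (1.49%), 738 in all (4.05%). These percentages are the background against which the counts of each gene list are given. The median log2 fold change of all genes, A. faecalis minus vehicle, was -0.028, and 56.2% of genes had one below 0. Without vehicle replicate 3 the median was 0.0085, and 4.01% of genes were lower and 3.26% higher at an unadjusted p under 0.05, while 4.72% lay wholly below the vehicle and 2.82% wholly above.

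Mmp10 sits in a cluster of metalloproteinase genes on mouse chromosome 9 that also holds Mmp13 and Mmp1b. The 250 bases before the start site of these 3 genes, from RefSeq on build GRCm38.p6, are shown because their levels lay lower together with A. faecalis and because each holds 1 copy of TGANTCA, the sequence AP-1 factors recognise, printed in capitals. The motif reads the same on both strands. It ends 56 bases before the Mmp10 start at chr9:7502092-7502341 (plus strand), 28 bases before the Mmp13 start at chr9:7272264-7272513 (plus strand) and 86 bases before the Mmp1b start at chr9:7388027-7388276 (minus strand).
Mmp10: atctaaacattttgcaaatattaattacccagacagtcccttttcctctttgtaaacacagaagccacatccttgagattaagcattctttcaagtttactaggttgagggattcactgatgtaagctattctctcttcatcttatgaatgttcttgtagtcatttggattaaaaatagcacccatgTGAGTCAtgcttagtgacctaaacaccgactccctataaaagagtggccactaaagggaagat
Mmp13: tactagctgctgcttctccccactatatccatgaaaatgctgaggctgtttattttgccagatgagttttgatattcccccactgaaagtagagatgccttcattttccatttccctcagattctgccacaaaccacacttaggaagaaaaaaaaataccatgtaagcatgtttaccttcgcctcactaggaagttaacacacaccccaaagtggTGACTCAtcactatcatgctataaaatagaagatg
Mmp1b: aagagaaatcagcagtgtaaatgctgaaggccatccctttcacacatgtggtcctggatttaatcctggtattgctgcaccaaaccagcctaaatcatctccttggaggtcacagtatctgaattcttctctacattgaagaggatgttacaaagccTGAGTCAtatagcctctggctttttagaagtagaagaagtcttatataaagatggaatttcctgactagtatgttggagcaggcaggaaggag
Among the other genes of this group, Mmp3 also had the motif at its 1 start, Mmp12 at 1 of its 2 starts, and Mmp8 and Mmp27 had none in this window. Gjb2, Areg and Itgb6, 3 keratinocyte genes outside the group that lay lower with A. faecalis, did not have it. The other lower genes outside the group were not looked up. Of 32851 mouse promoter windows of the same length, 6.75% held it, so 3 genes without it are too few for a contrast. The match describes the letters and is not a measured binding site.

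Mmp10 encodes stromelysin-2, a secreted metalloproteinase of migrating keratinocytes. Its level was 2.299, 2.598, 2.25 and 2.44 CPM in A. faecalis replicates 1 to 4 and 6.45, 10.3, 9.94 and 10.7 CPM in vehicle replicates 1 to 4. The A. faecalis libraries lay within a narrow band well below the lowest vehicle library. The log2 fold change was -1.96 (95% interval -2.32 to -1.60, edgeR adjusted p = 0.000994), and the gene was called in each fit that left out 1 of the 12 libraries. Mmp10 was not called with a replicate block in a fit of the A. faecalis and vehicle libraries alone. With S. aureus its level was 21.2 ± 2.94 CPM (mean ± SD, n = 4), and the log2 fold change of A. faecalis against S. aureus was -3.15 (edgeR adjusted p = 6.98e-06). Both comparisons use the same 4 A. faecalis libraries. Against S. aureus 1388 genes (7.62%) were lower and 922 (5.06%) higher with A. faecalis at this threshold.

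Keratinocyte markers lay lower with A. faecalis as well. Krt14, the keratin of basal keratinocytes, was at 272, 407, 501 and 473 CPM in A. faecalis wounds and 900, 558, 848 and 859 CPM in vehicle wounds, so that its groups did not overlap either. Per 1000 CPM of Krt14 in the same library, Mmp10 was at 8.44, 6.39, 4.49 and 5.17 with A. faecalis and 7.17, 18.5, 11.7 and 12.5 with vehicle. On that scale, chosen after seeing the data, A. faecalis replicate 1 lay above vehicle replicate 1. Vehicle replicate 2, the highest on it, had the lowest Krt14 level of its group. The means were 6.12 ± 1.73 and 12.5 ± 4.65 (SD, n = 4), and the log2 ratio of these means was -1.03. An exact two-sided permutation test on the mean log2 values gave p = 0.0571, where 0.0286 is the smallest that 4 against 4 allows. Adjusted over the 13 genes computed this way, that p was 0.446. The part of keratinocyte content in the result was not tested. In bulk tissue, fewer cells of a type and less RNA per cell cannot be told apart.

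The protein of Colq is a collagen-like tail that holds acetylcholinesterase in the basal lamina of the neuromuscular junction. Its level was 10.5, 8.76, 8.78 and 7.04 CPM in A. faecalis wounds and 3.31, 2.62, 2.62 and 2.64 CPM in vehicle wounds. Every A. faecalis library was far above every vehicle library, and A. faecalis replicate 1 was the highest. The log2 fold change was 1.65 (95% interval 1.28 to 2.01, edgeR adjusted p = 0.0038). With S. aureus the level was 1.58 ± 0.281 CPM (n = 4), with each library below each vehicle library, and A. faecalis against S. aureus gave a log2 fold change of 2.47 (edgeR adjusted p = 6.98e-05). Colq was also called in each fit that left out 1 library, but not with a replicate block in a fit of the A. faecalis and vehicle libraries alone.

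Of 16 tested genes of cholinesterases and the neuromuscular junction, 14 had a log2 fold change below 0. The list median was -0.24, and -0.038 without vehicle replicate 3. At an unadjusted p under 0.05 only Colq was higher and only Chrna1 lower. Chrna1, the muscle acetylcholine receptor subunit alpha, was at 5.29, 5.99, 6.16 and 5.57 CPM in A. faecalis wounds and 8.14, 5.805, 8.65 and 8.45 CPM in vehicle wounds. Ache, the enzyme the Colq protein anchors, was at 1.27, 2.94, 2.93 and 3.87 CPM against 2.46, 3.85, 3.09 and 6.07 CPM, with overlapping groups (log2 fold change -0.49, SE 0.44, edgeR adjusted p = 0.785). Of the skeletal muscle list, 2 of 18 genes were lower and 0 higher at an unadjusted p under 0.05, and without vehicle replicate 3, 1 was lower and 1 higher. In GENCODE M21 the neighbours of Colq are Hacl1, with which a read-through transcript is annotated, and Eaf1. Hacl1 was at 24.2 ± 3.21 CPM in A. faecalis wounds and 24.9 ± 4.73 CPM in vehicle wounds (log2 fold change -0.037, SE 0.15, edgeR adjusted p = 0.969), and Eaf1 at 108.8 ± 12.9 and 107.9 ± 25.4 CPM (log2 fold change 0.012, SE 0.15, edgeR adjusted p = 0.992). These neighbours were looked up after the value of Colq was seen.

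**Figure D1:**
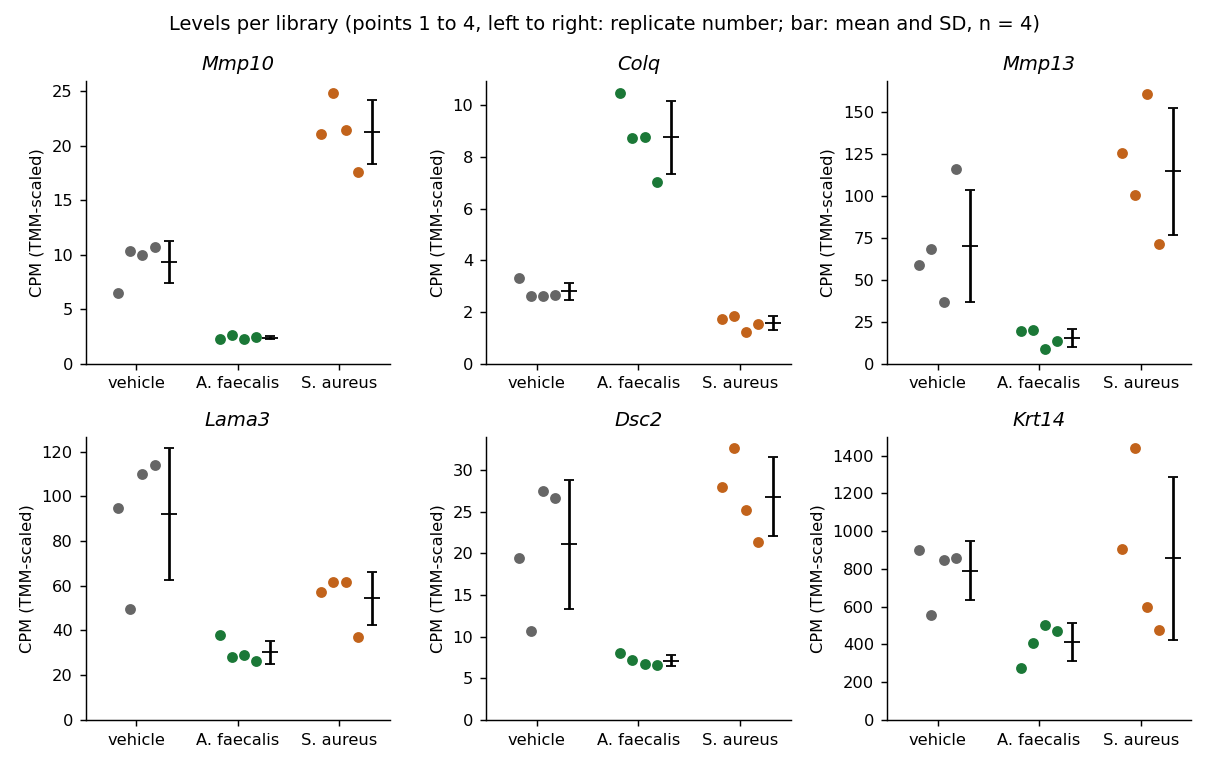
Level of Mmp10, Colq, Mmp13, Lama3, Dsc2 and Krt14 in CPM (TMM-scaled) in each of the 12 libraries, with the mean and SD of each group of 4. The 4 A. faecalis points lie outside the range of the 4 vehicle points in each panel, above it for Colq and below it for the other 5 genes.

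The stromelysin, collagenase and elastase group held 7 tested genes. Besides Mmp10, 3 members (Mmp13, Mmp12 and Mmp1b) had an unadjusted p under 0.05, all lower with A. faecalis, and the same 4 had groups that did not overlap; the group median was -0.80 on the log2 scale and -0.73 without vehicle replicate 3. Mmp13 encodes collagenase-3, which cuts fibrillar collagen. It was at 19.3, 20.2, 8.78 and 13.4 CPM in A. faecalis wounds and 58.6, 68.3, 36.6 and 116 CPM in vehicle wounds, a log2 fold change of -2.18 (95% interval -3.00 to -1.36). Its edgeR adjusted p was 0.16, short of the threshold, with the vehicle libraries spread over a wide range. Mmp12, the elastase of macrophages, was at 23.7, 25.8, 21 and 18.3 CPM against 49.8, 28.2, 93.3 and 48.4 CPM (edgeR adjusted p = 0.371). Vehicle replicate 3 was its highest library and vehicle replicate 2 lay close to the A. faecalis libraries. Mmp1b, a rodent interstitial collagenase homologue, was at 1.42, 1.09, 1.14 and 1.45 CPM against 1.82, 1.97, 2.45 and 2.605 CPM (log2 fold change -0.80, SE 0.23, edgeR adjusted p = 0.493).

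Mmp3, stromelysin-1, had groups that overlapped through vehicle replicate 3: it was at 148, 143, 141 and 179 CPM in A. faecalis wounds and 229, 322, 88.7 and 214 CPM in vehicle wounds. Its log2 fold change was -0.48 (edgeR adjusted p = 0.696), and -0.72 without vehicle replicate 3, where the remaining vehicle libraries all lay above the A. faecalis libraries (edgeR adjusted p = 0.28). Against S. aureus, Mmp3, Mmp12, Mmp13 and Mmp1b were lower with A. faecalis, with log2 fold changes of -2.23, -2.34, -2.89 and -1.35 (edgeR adjusted p = 0.00154, 0.00171, 0.00146 and 0.00432). Mmp8, the neutrophil collagenase, spread widely in both groups, at 118, 441, 235 and 566 CPM in A. faecalis wounds and 81.4, 225, 28.2 and 498 CPM in vehicle wounds (log2 fold change 0.71, 95% interval -0.83 to 2.25, or 1.62 without vehicle replicate 4).

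The remaining metalloproteinases and their inhibitors gave no call. None of the 14 gelatinases, membrane-type and other metalloproteinases, none of the 6 inhibitors and none of the 15 ADAM and ADAMTS proteases had an unadjusted p under 0.05, and none of these genes had groups that did not overlap. Of the 15 ADAM and ADAMTS genes, 2 were lower at that p without vehicle replicate 3. Mmp9, the gelatinase of neutrophils and macrophages, had a log2 fold change of 0.46 (95% interval -0.49 to 1.42), and Mmp14, the membrane-type enzyme that activates other metalloproteinases, of 0.28 (95% interval -0.073 to 0.63). Timp4, an inhibitor made by adipose tissue, was at 31.8, 20.7, 28.3 and 28.6 CPM against 19.6, 17.4, 161 and 35.3 CPM, and its log2 fold change of -1.09 became 0.20 without vehicle replicate 3, the library rich in adipocyte genes.

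Of 10 genes of plasminogen activation, 3 were lower and 1 higher with A. faecalis at an unadjusted p under 0.05. Plau, urokinase, the protease that starts plasmin formation and so the activation of prometalloproteinases, was at 58.3, 43.2, 51.3 and 38.5 CPM in A. faecalis wounds and 90.7, 56.8, 117 and 52.7 CPM in vehicle wounds (log2 fold change -0.73, SE 0.23, edgeR adjusted p = 0.527), with overlapping groups. Anxa2 and S100a10, the subunits of the plasminogen-binding annexin complex, had log2 fold changes of -0.23 and -0.28, with every A. faecalis library below every vehicle library. The 1 higher gene was Serpinf2, the plasmin inhibitor, at 0.118, 0.574, 0.412 and 0.3795 CPM against 0.139, 0.153, 0.0631 and 0.0546 CPM. Leaving out vehicle replicate 3, 1 of the 10 was lower at that p.

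**Figure D2:**
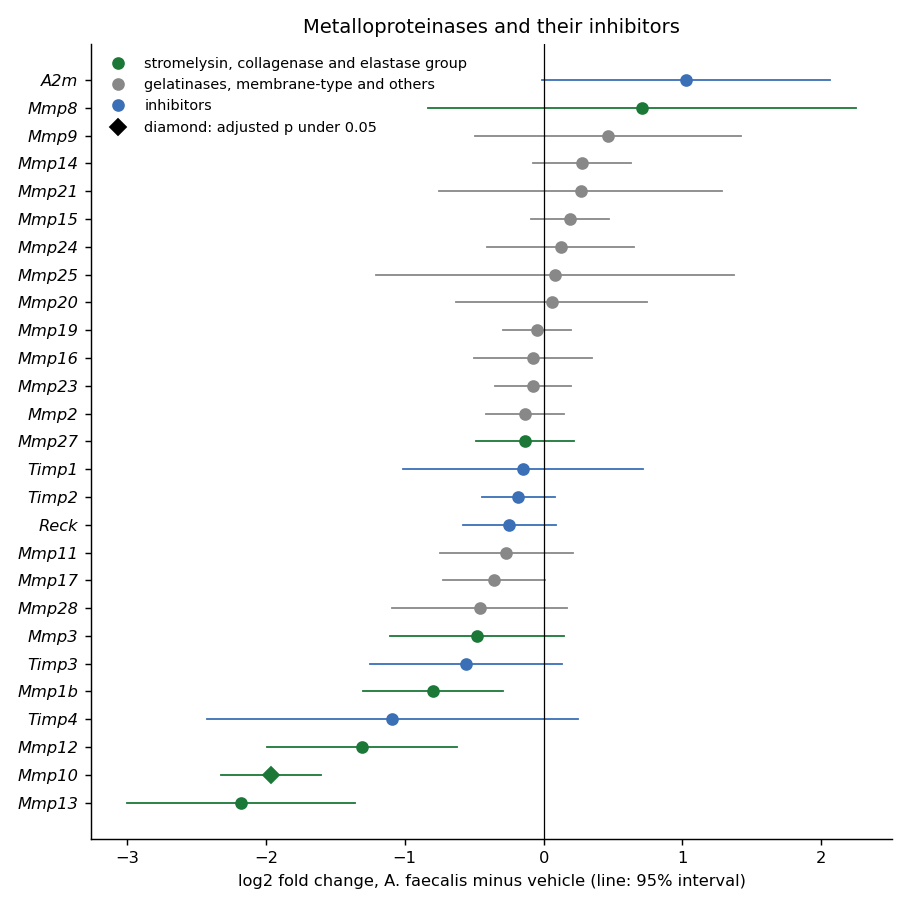
Log2 fold change, A. faecalis minus vehicle, of the 21 metalloproteinases and 6 inhibitors tested, each with its 95% interval, which is not adjusted for the number of genes; the diamond is the 1 gene past the adjusted threshold. Mmp13, Mmp10, Mmp12 and Mmp1b have intervals that lie wholly below 0, and the intervals of the gelatinases and inhibitors include 0.

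Several genes of adhesion to laminin lay lower with A. faecalis. Of 18 tested genes of laminin-332, hemidesmosomes and migration integrins, 8 were lower and 0 higher at an unadjusted p under 0.05, and 6 had A. faecalis libraries wholly below the vehicle; none passed the adjusted threshold of edgeR. Lama3, which encodes a laminin-332 chain, was at 37.7, 28.1, 28.9 and 26.3 CPM in A. faecalis wounds and 94.6, 49.4, 110 and 114 CPM in vehicle wounds (log2 fold change -1.60, SE 0.25, edgeR adjusted p = 0.16). Vehicle replicate 2 was its lowest vehicle library and lay nearest to the A. faecalis libraries, and the gene was called without it (edgeR adjusted p = 0.00388). Lamb3, which encodes another chain and is named here after its values were seen, was at 33.2, 77.3, 40.5 and 74.5 CPM in A. faecalis wounds and 49.5, 51.4, 49.8 and 88.6 CPM in vehicle wounds, with overlapping groups and a log2 fold change of -0.086 (95% interval -0.70 to 0.53) that changed sign when single libraries were left out.

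Among the integrins, Itgb6, the chain of a receptor that activates latent TGF-beta in wound-edge keratinocytes, was at 3.31, 3.301, 4.404 and 3.53 CPM in A. faecalis wounds and 7.08, 7.28, 8.08 and 9.73 CPM in vehicle wounds. Each vehicle library was well above each A. faecalis library (log2 fold change -1.14, SE 0.19, edgeR adjusted p = 0.16). Itga2, the collagen-binding integrin chain through which keratinocytes on collagen induce collagenase, was at 16.01, 14.8, 13.8 and 14.3 CPM against 20.9, 20.6, 18.5 and 21.3 CPM (log2 fold change -0.47, edgeR adjusted p = 0.271). Against S. aureus, the log2 fold change of A. faecalis was -1.13 for Itgb6 and -0.84 for Lama3 (edgeR adjusted p = 0.00403 and 0.0441).

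Most desmosome genes lay lower with A. faecalis. Of 13 desmosome genes, which encode the plaques and cadherins that rivet keratinocytes to each other, all had a log2 fold change below 0, 11 were lower at an unadjusted p under 0.05, and 10 had A. faecalis libraries wholly below the vehicle; the median was -0.67. Without vehicle replicate 3, 8 of the 13 were lower at that p and the median was -0.66. Dsc2, desmocollin-2, was at 7.995, 7.21, 6.73 and 6.62 CPM in A. faecalis wounds and 19.5, 10.7, 27.5 and 26.6 CPM in vehicle wounds (log2 fold change -1.56, SE 0.25, edgeR adjusted p = 0.16). As in Lama3, vehicle replicate 2 was the vehicle library nearest to A. faecalis, and Dsc2 was called without it (edgeR adjusted p = 0.00203). Dsg3, the desmoglein of basal cells, was at 27.1, 31.98, 43.4 and 35.2 CPM against 82.2, 56.1, 81.5 and 73.3 CPM (log2 fold change -1.09, edgeR adjusted p = 0.342). Pkp3 and Dsg2, a plakophilin and a desmoglein, had log2 fold changes of -0.72 and -0.61.

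Of 8 connexins and pannexins, the channel proteins of gap junctions and hemichannels, 3 were lower at an unadjusted p under 0.05, and the same 3 had groups that did not overlap. Gjb2, connexin 26, which injured and psoriatic epidermis is known to raise, was at 47.4, 74.96, 70.4 and 68.2 CPM in A. faecalis wounds and 161, 166, 134 and 165 CPM in vehicle wounds. The vehicle values lay in a tight band, with vehicle replicate 3 lowest among them, and the log2 fold change was -1.26 (SE 0.23, edgeR adjusted p = 0.172). Gjb6, connexin 30, was at 4.21, 7.66, 6.34 and 12.4 CPM in A. faecalis wounds and 18.7, 16.6, 14.8 and 19.6 CPM in vehicle wounds, a log2 fold change of -1.19 (edgeR adjusted p = 0.467).

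Hbegf, Areg and Tgfa, ligands that drive keratinocyte migration, lay lower with A. faecalis. Of 12 genes of the epidermal growth factor receptor family tested, 11 had a log2 fold change below 0, and the highest was at 1.20. At an unadjusted p under 0.05, 0 were higher and 4 were lower: these 3 ligands and the receptor Erbb2. Hbegf, heparin-binding EGF-like growth factor, was at 10.1, 9.19, 10.6 and 8.44 CPM in A. faecalis wounds and 14.5, 19.8, 17.5 and 19.5 CPM in vehicle wounds (log2 fold change -0.90, SE 0.16, edgeR adjusted p = 0.16). Tgfa, transforming growth factor alpha, was at 6.795, 8.78, 11.4 and 12.8 CPM against 18.5, 22.3, 17.9 and 20.2 CPM (log2 fold change -0.99, edgeR adjusted p = 0.342). Areg, amphiregulin, was at 4.14, 3.86, 4.07 and 3.46 CPM against 4.86, 6.21, 8.14 and 7.09 CPM (log2 fold change -0.76, edgeR adjusted p = 0.342). In all 3 ligands the groups did not overlap, whereas Erbb2 had overlapping groups and a log2 fold change of -0.25. All 3 ligands were also lower with A. faecalis than with S. aureus, by log2 fold changes of -1.72, -1.70 and -1.23 (edgeR adjusted p = 0.000592, 0.00131 and 0.00147).

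Markers of the keratinocytes themselves moved with these genes. Of 12 basal keratinocyte genes, 7 were lower and 0 higher at an unadjusted p under 0.05, 8 had A. faecalis libraries wholly below the vehicle, and the median was -0.63. Leaving out vehicle replicate 3, 6 were lower at that p and the median was -0.58. Trp63, the transcription factor of the basal layer, was at 24.2, 28.2, 32.2 and 33.9 CPM in A. faecalis wounds and 54.2, 43.4, 49.5 and 47.96 CPM in vehicle wounds (log2 fold change -0.72, edgeR adjusted p = 0.519), and Krt14 had a log2 fold change of -0.94 (SE 0.32, edgeR adjusted p = 0.547). Klf5 and Grhl3, transcription factors of epidermal growth and barrier repair, had log2 fold changes of -0.56 and -0.86. A. faecalis replicate 1 had the lowest summed level of the list, 610 CPM. Set against Krt14 of the same library, each of 13 genes computed this way (Mmp10, Mmp13, Lama3, Itgb6, Dsc2, Dsg3, Gjb2, Hbegf, Tgfa, Areg, Krt6a, Krt16 and Krt17) had overlapping groups. The log2 ratios ran from -1.14 for Mmp13 and -1.03 for Mmp10, through -0.51 for Lama3, -0.49 for Dsc2 and -0.36 for Gjb2, to 0.05 for Hbegf and 0.22 for Areg. The share of all genes without overlap was not computed on this scale, which also carries the spread of Krt14 between libraries. The part of keratinocyte content in the lower levels of laminin, junction and growth factor genes was not tested.

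The stress keratins, which keratinocytes make when they are activated by injury, had differences close in size to that of Krt14. All 14 genes of the stress keratin and activated-edge list had a log2 fold change below 0, and 4 of them, Krt6a, Krt6b, Krt16 and Krt17, were lower at an unadjusted p under 0.05 with groups that did not overlap. The count was 7 without vehicle replicate 3. Krt6b was at 276, 300, 398 and 398 CPM in A. faecalis wounds and 838, 650, 584 and 738 CPM in vehicle wounds, and Krt17 at 54.01, 84.8, 97.2 and 76.6 CPM against 182, 185, 105 and 156 CPM. Their log2 fold changes and those of Krt6a and Krt16 lay between -1.03 and -0.96 (edgeR adjusted p = 0.458 to 0.506). Reads of Krt6a and Krt6b, and of Krt16 and Krt17, can be divided between near-identical transcripts, so single values are uncertain.

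Of 28 genes of differentiated epidermis and the cornified envelope, 27 had a log2 fold change below 0, 7 were lower at an unadjusted p under 0.05 and 4 had groups that did not overlap, or 7 without vehicle replicate 3. The summed level of this list overlapped between groups, 577 to 1300 CPM in A. faecalis wounds and 1070 to 1550 CPM in vehicle wounds. Alox12b, the lipoxygenase needed for the lipid barrier, was at 1.57, 1.42, 2.28 and 3.18 CPM in A. faecalis wounds and 3.44, 5.94, 5.51 and 5.501 CPM in vehicle wounds (log2 fold change -1.28, edgeR adjusted p = 0.371). Rptn, repetin, a cornified envelope precursor, was at 6.66, 1.69, 2.55 and 5.57 CPM against 20.1, 25.1, 10.00 and 10.3 CPM (edgeR adjusted p = 0.487). Lce3a, a late cornified envelope gene of the kind induced by injury, was at 0.659, 0.617, 0.919 and 1.71 CPM against 3.14, 3.87, 2.303 and 4.12 CPM, and Lce3c at 1.403, 2.24, 3.26 and 5.67 CPM against 5.5, 6.44, 7.53 and 8.597 CPM. Both belong to a family of near-identical genes, and their single values are uncertain.

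**Figure D3:**
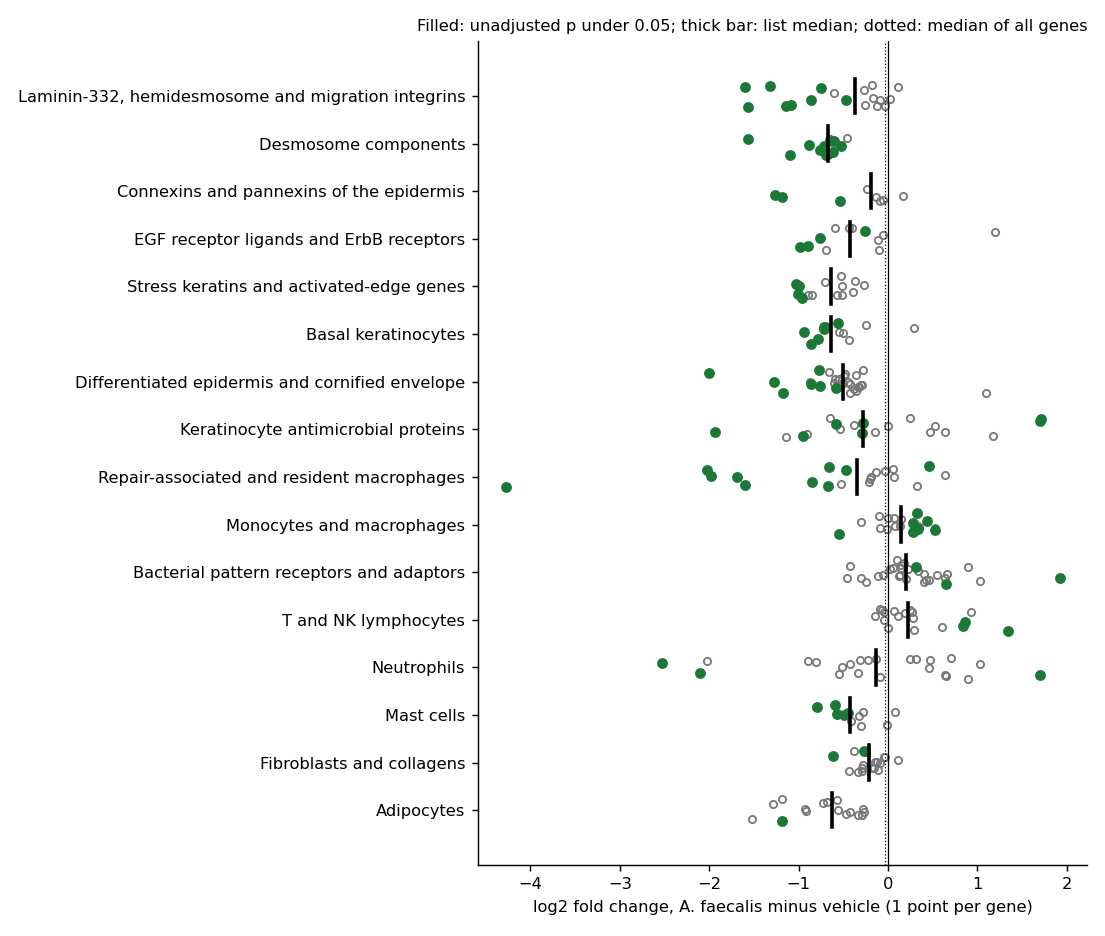
Log2 fold change, A. faecalis minus vehicle, of each tested gene of 16 lists; filled points have an unadjusted p under 0.05, thick bars mark list medians and the dotted line the median of all genes. The desmosome, basal keratinocyte and stress keratin medians lie at -0.67, -0.63 and -0.64, and those of the pattern receptors and lymphocytes at 0.20 and 0.22.

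The list of keratinocyte antimicrobial proteins held genes on both sides. It shares Camp, Lcn2 and Ltf with the neutrophil list and Lyz2 with the monocyte and macrophage list. Of 19 tested, 5 were lower and 2 higher at an unadjusted p under 0.05, and 4 lay wholly below the vehicle, or 7 without vehicle replicate 3. Defb4, a beta-defensin induced by inflammation, was at 0.338, 0.0861, 0.158 and 0.308 CPM in A. faecalis wounds and 1.02, 0.747, 0.883 and 0.692 CPM in vehicle wounds (log2 fold change -1.94, edgeR adjusted p = 0.371). Defb14 was at 1.37, 1.74, 2.33 and 3.01 CPM against 3.11, 3.41, 4.15 and 5.65 CPM, and Rnase4, a ribonuclease with antimicrobial activity, at 186, 188, 202 and 186 CPM against 245, 211, 247 and 225 CPM. Camp, the cathelicidin of neutrophils and keratinocytes, was the opposite, at 0.507, 2.05, 0.998 and 1.76 CPM in A. faecalis wounds and 0.312, 0.709, 0.0947 and 0.528 CPM in vehicle wounds (log2 fold change 1.70, edgeR adjusted p = 0.587), with vehicle replicates 2 and 4 inside the A. faecalis range.

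Of 14 genes of the interleukin-17 and interleukin-22 axis, which induces many of those proteins, 3 were lower and 1 higher at an unadjusted p under 0.05. Il17a was near the limit of detection, with 2, 0, 0 and 0 counts in the A. faecalis libraries and 0, 16, 2 and 8 in the vehicle libraries. The ratio of the groups was 0.0752, with an exact 95% interval of 0.00865 to 0.3 that covers counting error only, and vehicle replicates 2 and 4 held most of the counts. Il22ra1, the epithelial receptor chain of interleukin-22, was at 0.9297, 1.89, 1.92 and 2.78 CPM against 3.75, 3.49, 2.903 and 3.22 CPM, and Il23r, a receptor of the lymphocytes that make interleukin-17, at 0.896, 1.68, 0.998 and 1.47 CPM against 0.642, 0.977, 0.363 and 0.546 CPM. Il17rc, a receptor chain of interleukin-17, had a log2 fold change of -0.37.

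Macrophage genes lay on both sides. Of 20 genes of repair-associated and resident macrophages, 9 were lower and 1 higher at an unadjusted p under 0.05, and 4 had A. faecalis libraries wholly below the vehicle. Of 19 general monocyte and macrophage genes, 6 were higher and 1 lower, and 2 had A. faecalis libraries wholly above. Without vehicle replicate 3 the first list had 9 lower and 1 higher, and the second 4 higher and 1 lower. The difference between the lists was not tested. Both summed levels overlapped between groups, at 7860 to 8620 CPM in A. faecalis wounds against 5920 to 8530 CPM in the vehicle for the first list, and at 5940 to 9750 CPM against 4840 to 8650 CPM for the second. No gene of either list passed edgeR's adjusted threshold.

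In the first list, Cd209f, a C-type lectin of the DC-SIGN family found on tissue macrophages, was at 10.5, 8.97, 8.902 and 11.3 CPM in A. faecalis wounds and 20.6, 13.5, 18.6 and 18.96 CPM in vehicle wounds (log2 fold change -0.86, SE 0.14, edgeR adjusted p = 0.16). Its relatives Cd209d and Cd209a were at 2.84, 2.38, 3.22 and 3.77 CPM against 9.54, 3.08, 19.03 and 17.9 CPM and at 0.997, 0.947, 1.12 and 0.593 CPM against 2.26, 1.15, 4.67 and 3.77 CPM. In all 3 lectins vehicle replicate 2 was the lowest vehicle library, and reads of these related genes can be divided between them. Lyve1, the hyaluronan receptor of lymphatic vessels and perivascular macrophages, was at 45.2, 35.9, 44.9 and 54.8 CPM against 73.3, 50.7, 72.2 and 89.1 CPM, with overlap between A. faecalis replicate 4 and vehicle replicate 2. Outside both lists, Fcna, ficolin A, a lectin of macrophages that starts complement activation on bacteria, was at 7.56, 5.76, 6.94 and 5.84 CPM against 24.4, 8.91, 28.3 and 16.9 CPM (log2 fold change -1.59, SE 0.28, edgeR adjusted p = 0.16). With S. aureus Fcna was at 30.6 ± 2.72 CPM (n = 4), and A. faecalis against S. aureus gave -2.23 (edgeR adjusted p = 0.00109).

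In the second list, C1qa and C1qc, chains of the complement protein made by tissue macrophages, lay higher in every A. faecalis library than in every vehicle library, with a narrow gap to vehicle replicate 1. C1qc was at 341, 412, 364 and 403 CPM in A. faecalis wounds and 335, 318, 306 and 254 CPM in vehicle wounds (log2 fold change 0.33, edgeR adjusted p = 0.551), and C1qa at 302, 355, 299 and 319 CPM against 294, 264, 226 and 229 CPM. Mertk, a receptor for the uptake of dead cells, had a log2 fold change of 0.28 with overlapping groups. Cx3cr1, the fractalkine receptor of resident and patrolling cells, was the 1 lower member, at 5.88, 8.27, 6.94 and 5.69 CPM against 11.1, 10.2, 11.7 and 6.25 CPM.

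**Figure D4:**
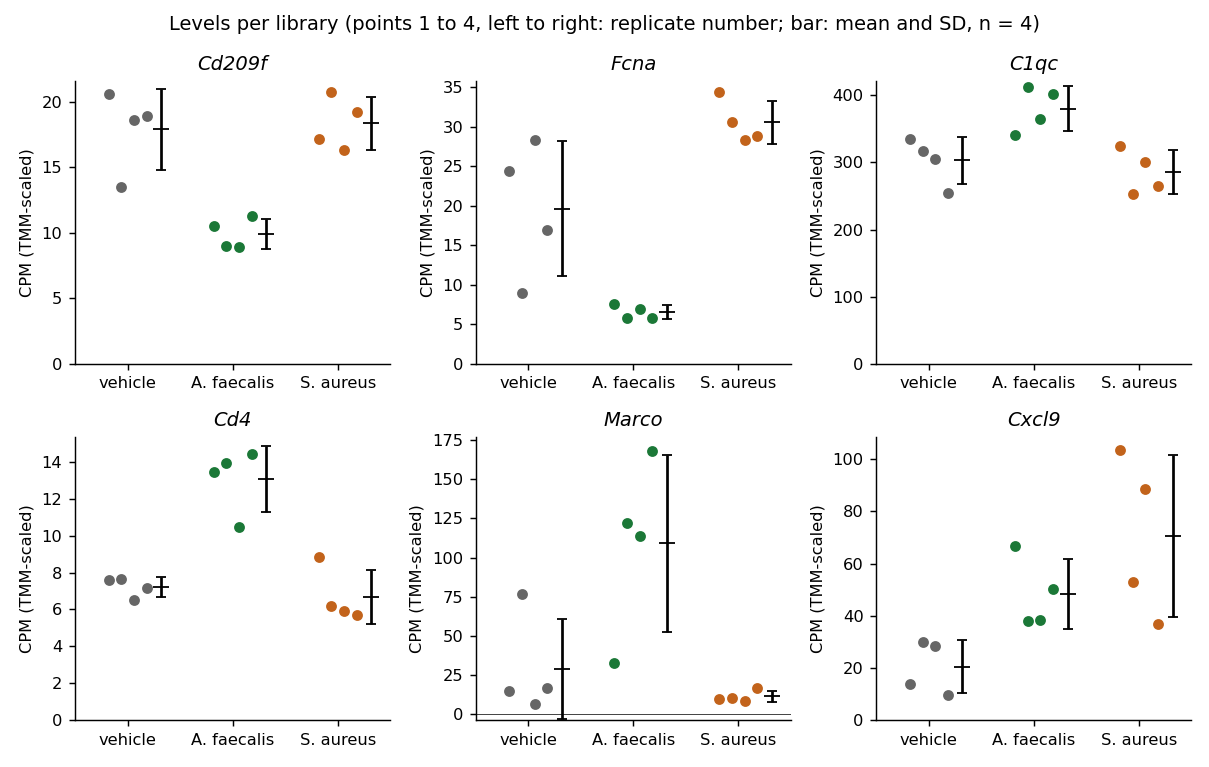
Level of Cd209f, Fcna, C1qc, Cd4, Marco and Cxcl9 in CPM (TMM-scaled) in each of the 12 libraries, with the mean and SD of each group of 4. A. faecalis points lie below all vehicle points for Cd209f and Fcna and above them for C1qc, Cd4 and Cxcl9, while for Marco vehicle replicate 2, at 76.4 CPM, lies within the A. faecalis range.

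Among receptors for bacterial products, no gene was called between A. faecalis and vehicle. Of 29 pattern receptors and adaptors, 3 were higher and 0 lower at an unadjusted p under 0.05 (10.3%, against 7.68% of all genes). None had groups that did not overlap. Of the 29, 6 had a log2 fold change below 0, against 56.2% of all genes. The median log2 fold change was 0.20, or 0.12 without vehicle replicate 3. Marco, the scavenger receptor of macrophages that binds bacteria, was at 32.5, 122, 114 and 168 CPM in A. faecalis wounds and 15.1, 76.4, 6.705 and 17.01 CPM in vehicle wounds (log2 fold change 1.92, SE 0.67, edgeR adjusted p = 0.56). Without vehicle replicate 2 its log2 fold change was 3.08 (edgeR adjusted p = 0.125). With S. aureus it was at 11.4 ± 3.63 CPM (n = 4), and A. faecalis against S. aureus gave a log2 fold change of 3.25 (edgeR adjusted p = 0.0133). Tlr9, the receptor for bacterial DNA, was at 41.3, 79.1, 61.3 and 77.5 CPM against 39.5, 52.1, 29.98 and 43.7 CPM, and Ticam2, an adaptor of the endotoxin receptor, had a log2 fold change of 0.31. Of 19 genes that endotoxin induces in myeloid cells, 17 had a log2 fold change above 0 and 2, Gpr84 and Cd40, were higher at an unadjusted p under 0.05. Gpr84, a receptor for medium-chain fatty acids, was at 25.5, 68.2, 36.8 and 49.8 CPM in A. faecalis wounds and 10.4, 32.7, 3.03 and 28.3 CPM in vehicle wounds, with the lowest value in vehicle replicate 3. The median of the endotoxin list was 0.47, and without that library it was 0.26, with 1 gene higher.

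Among chemokines and endothelial genes, Cxcl9 and Vcam1 were the members with A. faecalis libraries wholly above the vehicle. Cxcl9, the interferon-gamma-induced chemokine of T cells, was at 66.6, 37.9, 38.4 and 50.3 CPM in A. faecalis wounds and 13.8, 29.8, 28.4 and 9.599 CPM in vehicle wounds (log2 fold change 1.24, SE 0.40, edgeR adjusted p = 0.539). Vcam1, the endothelial adhesion molecule for lymphocytes and monocytes, was at 77.6, 37.9, 41.1 and 52.9 CPM against 36.8, 33.1, 21.5 and 19.1 CPM, and Icam1 at 87.1, 151, 116 and 137 CPM against 70.98, 99.3, 57.2 and 84.3 CPM with overlap. Il18, a cytokine of the interleukin-1 family that elicits interferon gamma, was at 8.47, 11.7, 6.87 and 7.88 CPM against 6.14, 4.14, 3.31 and 3.99 CPM (log2 fold change 0.99, edgeR adjusted p = 0.44), whereas the alarmin Il33 was at 61.1, 79.2, 80.1 and 79.1 CPM against 93.4, 134, 68.2 and 107 CPM. Of 20 interferon-stimulated genes, 2 were lower and 0 higher at an unadjusted p under 0.05, and 1 was lower without vehicle replicate 3, with Oas3, a sensor of double-stranded RNA, at a log2 fold change of -0.79.

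The chemokines Ccl22, Ccl17 and Ccl24 were on the other side. Ccl22, a chemokine of dendritic cells and macrophages that attracts regulatory and type 2 T cells, was at 1.94, 3.11, 1.74 and 2.06 CPM in A. faecalis wounds and 6.42, 7.07, 4.92 and 4.32 CPM in vehicle wounds (log2 fold change -1.35, SE 0.25, edgeR adjusted p = 0.172). Ccl24, an eosinophil attractant, was at 1.79, 1.49, 1.96 and 1.92 CPM against 2.72, 2.57, 4.12 and 12.3 CPM, with vehicle replicate 4 far above the other vehicle libraries. Ccl17 had a log2 fold change of -1.49 at levels under 1 CPM. Over all 29 chemokines tested, 3 were lower and 3 higher at an unadjusted p under 0.05. Among 15 genes of dendritic and Langerhans cells, Ccr7, the receptor for migration to lymph nodes, and Cd207, langerin, had log2 fold changes of -0.80 and -1.08, and H2-Eb1, a class II antigen-presentation chain, was at 1.302, 1.28, 2.49 and 0.878 CPM against 0.364, 0.575, 0.631 and 0.674 CPM.

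Cd4 was higher with A. faecalis in every library. The gene encodes the coreceptor of helper T cells, which some mouse myeloid cells carry as well, and it was at 13.5, 13.95, 10.5 and 14.4 CPM in A. faecalis wounds and 7.6, 7.62, 6.48 and 7.14 CPM in vehicle wounds (log2 fold change 0.86, SE 0.15, edgeR adjusted p = 0.16). With S. aureus it was at 6.66 ± 1.46 CPM (n = 4), and A. faecalis against S. aureus gave 0.97 (edgeR adjusted p = 0.00283). Of the 18 genes of T and NK lymphocytes, 3 were higher and 0 lower at an unadjusted p under 0.05: Cd4, Cd8b1 and Nkg7. Nkg7, a granule protein of cytotoxic cells, was at 1.52, 3.17, 1.6 and 2.25 CPM against 1.301, 1.303, 1.37 and 0.783 CPM. Cd8b1, a chain of the cytotoxic T cell coreceptor, was at 0.473, 0.962, 0.301 and 0.569 CPM against 0.191, 0.345, 0.126 and 0.255 CPM, and Gzma, a granzyme, had a log2 fold change of 0.92 with overlapping groups. The summed level of the list was 136 to 162 CPM in A. faecalis wounds and 114 to 154 CPM in vehicle wounds.

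Neutrophil genes spread widely within the vehicle group. Of 23 tested, 2 were lower and 1 higher at an unadjusted p under 0.05, and the summed level ran from 3640 to 9090 CPM in A. faecalis wounds and from 1220 to 14100 CPM in vehicle wounds. Retnlg, a resistin-like gene of neutrophils, was at 31.5, 43.6, 16.5 and 53.6 CPM in A. faecalis wounds and 24.3, 263, 13.98 and 536 CPM in vehicle wounds, and Ly6g, the surface marker of mouse neutrophils, at 1.49, 4.004, 1.38 and 4.91 CPM against 3.09, 17.8, 1.03 and 28.4 CPM. In both genes vehicle replicates 2 and 4 were high and vehicle replicates 1 and 3 lay within or just below the A. faecalis range. Without vehicle replicate 3, 7 of the 23 were lower at that p and the median was -0.40 in place of -0.13. With S. aureus, Retnlg was at 1192 ± 360 CPM and Ly6g at 55.2 ± 14.6 CPM (n = 4 each), and A. faecalis against S. aureus gave log2 fold changes of -5.04 and -4.24 (edgeR adjusted p = 0.00928 and 0.0097).

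**Figure D5:**
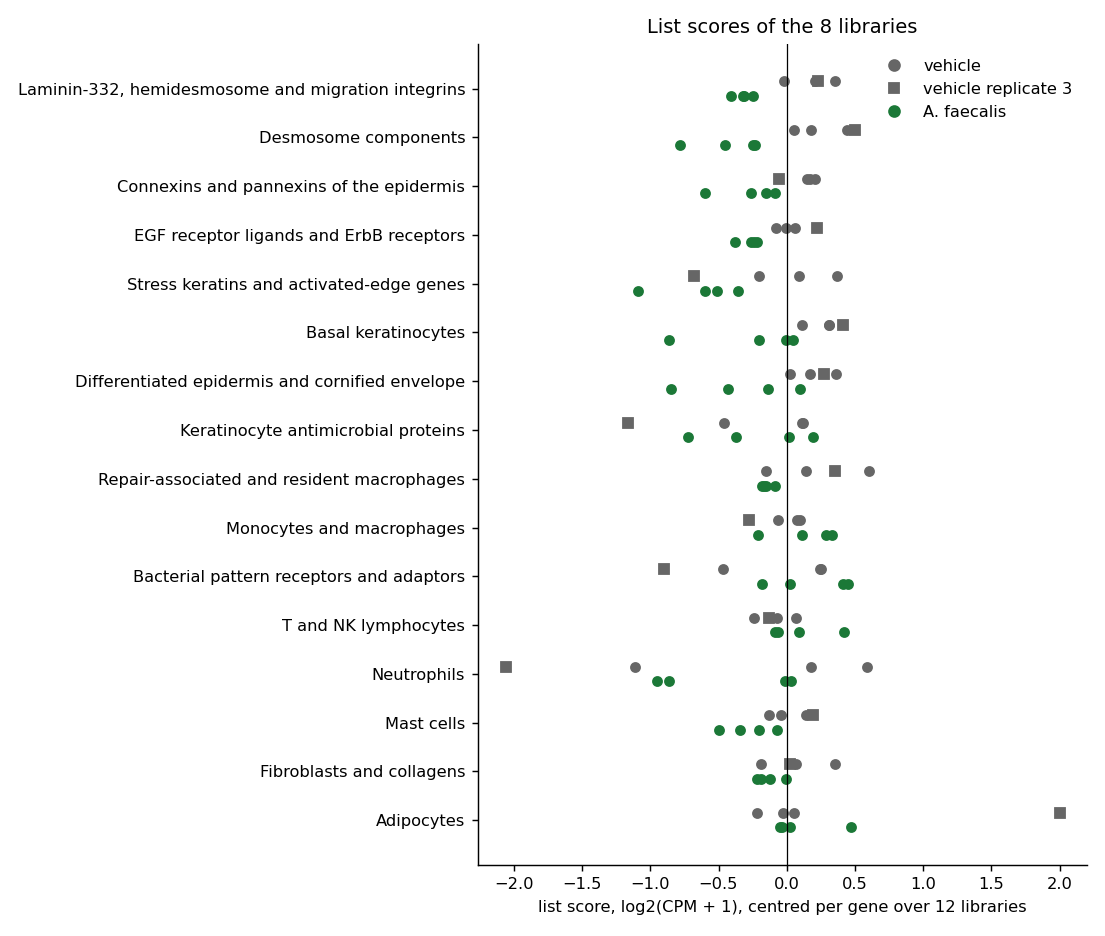
Score of 16 gene lists in the 8 libraries, the mean over genes of log2(CPM + 1) minus that gene's mean in the whole set of 12. The 4 A. faecalis libraries lie below the 4 vehicle libraries for laminin and integrins (-0.41 to -0.25 against -0.017 to 0.35), desmosomes (-0.78 to -0.23 against 0.055 to 0.50) and basal keratinocytes (-0.86 to 0.046 against 0.11 to 0.41). The same holds for the epidermal growth factor family (-0.38 to -0.22 against -0.081 to 0.22) and, narrowly, for connexins and pannexins (-0.60 to -0.083 against -0.057 to 0.21). Vehicle replicate 3 lies at 2.0 for adipocytes and at -2.06 for neutrophils.

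Several counts for other cells moved when vehicle replicate 3 was left out. Of 12 mast cell genes, 5 were lower at an unadjusted p under 0.05, and 1 without vehicle replicate 3. Mcpt4, a chymase of connective tissue mast cells, was at 25.1, 33.4, 38.02 and 36.8 CPM in A. faecalis wounds and 47.9, 38.05, 68.5 and 46.6 CPM in vehicle wounds, and Tpsb2, a tryptase, Gata2, a transcription factor of mast cells, and Mrgprb1, a Mas-related receptor, had log2 fold changes of -0.57, -0.49 and -0.45. The 16 adipocyte genes all had a log2 fold change below 0 with a median of -0.62, which was 0.23 without vehicle replicate 3. Lep, leptin, was at 474, 299, 335 and 279 CPM in A. faecalis wounds and 398, 227, 2207 and 328 CPM in vehicle wounds, and Cfd, adipsin, at 50.4, 51.9, 47.4 and 41.8 CPM against 52.7, 42.2, 274 and 67.9 CPM, both high in vehicle replicate 3 alone. Of 9 erythroid genes, 5 were lower and 2 higher at an unadjusted p under 0.05 (77.8%, against 7.68% of all genes). These counts were the same without vehicle replicate 3, while 1 gene lay wholly below the vehicle, or 4 without that library. Log2 fold changes of the list ran from -1.53 to 0.87. Hbb-bs and Hba-a2, haemoglobin chains with near-identical copies, were at 10.99, 8.41, 8.62 and 5.98 CPM against 23.2, 20.04, 7.87 and 19.6 CPM and at 5.71, 5.32, 5.12 and 3.87 CPM against 12.4, 10.9, 5.03 and 9.76 CPM.

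In the dermis, 2 of 18 fibroblast and collagen genes were lower at an unadjusted p under 0.05, and 4 without vehicle replicate 3. Twist2, a transcription factor of dermal fibroblasts, was at 10.6, 9.99, 11.3 and 10.96 CPM in A. faecalis wounds and 15.9, 19.7, 14.8 and 15.2 CPM in vehicle wounds. Its spread was small in both groups, and the log2 fold change was -0.61 (SE 0.10, edgeR adjusted p = 0.16). Against S. aureus, Twist2 had a log2 fold change of -0.97 (edgeR adjusted p = 0.000719). Of 19 fibroblast, hepatocyte and platelet-derived growth factor genes, 2 were lower at that p (4 without vehicle replicate 3), Mst1r, the receptor of macrophage-stimulating protein, and Fgfr1, with log2 fold changes of -0.63 and -0.31 and groups that did not overlap. Of 16 genes of retinoic acid metabolism, Dhrs9, which makes retinaldehyde, and Crabp2, which carries retinoic acid to the nucleus, were lower at that p, with log2 fold changes of -0.63 and -0.74 and no overlap, and 6 of the 16 were lower without vehicle replicate 3. At that p, none of the 17 myofibroblast and provisional matrix genes and 0 of the 9 B and plasma cell genes differed, and without vehicle replicate 3, 2 of the myofibroblast genes were lower. Of 21 AP-1 and immediate-early genes, 1 was lower and 0 higher (0 lower without vehicle replicate 3). The list median was -0.029, near that of all genes, and -0.23 without vehicle replicate 3. The list holds AP-1 factors, which recognise the motif shown above, and also genes outside that family.

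The genes with the smallest p-values on the higher side, after Colq, belonged to none of the lists apart from Cd4 and H2-Eb1. Lmln, a leishmanolysin-like metallopeptidase, was at 14.1, 13.5, 17.9 and 18.9 CPM in A. faecalis wounds and 9.09, 7.78, 11.2 and 8.92 CPM in vehicle wounds (log2 fold change 0.80, SE 0.14, edgeR adjusted p = 0.16). Idua, the lysosomal enzyme alpha-L-iduronidase, was at 35.2, 44.8, 38.9 and 41.3 CPM against 27.8, 29.7, 22.6 and 32.6 CPM, and Pigz, an enzyme of glycolipid anchor synthesis, at 6.25, 7.35, 7.68 and 7.04 CPM against 5.17, 4.92, 3.11 and 3.35 CPM. Tmem176b, a membrane protein of myeloid cells, was at 91.5, 110, 97.7 and 123 CPM against 74.1, 80.4, 75.5 and 60.7 CPM, and Filip1l at 99.3, 116, 109 and 130 CPM against 92.03, 89.6, 73.1 and 81.3 CPM. All 5 had groups that did not overlap and none was called. Ermard, at 48.6, 52.2, 52.02 and 56.9 CPM against 34.2, 42.1, 30.3 and 26.7 CPM, overlaps Tcte3 on the opposite strand in GENCODE M21; Tcte3 had a log2 fold change of 0.71 and Ermard of 0.65, and reads of the pair cannot be told apart here. Oca2, a melanosome transporter, was at 1.66, 1.44, 1.81 and 0.617 CPM against 0.208, 0.479, 0.4102 and 0.146 CPM, while the other 7 melanocyte genes had an unadjusted p above 0.05. On the lower side, Pxdc1, whose function is little described, was at 19.4, 16.3, 17.2 and 18.3 CPM in A. faecalis wounds and 23.3, 24.2, 33.3 and 27.2 CPM in vehicle wounds.

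DESeq2's Wald test on the same counts called 120 genes, 0.659% of those tested, with 80 lower (0.439%) and 40 higher (0.220%) with A. faecalis. Genes named above that it called as lower were Mmp10, Mmp12 and Mmp13 (DESeq2 adjusted p = 2.56e-23, 0.0149 and 7.01e-06), Lama3, Itgb6 and Itga2, Dsc2 and Dsg3, Gjb2, Hbegf, Tgfa and Areg, Alox12b, Rptn, Lce3a and Defb4, Twist2, Mst1r and Pxdc1, and Ccl22, Fcna, Cd209f, Cd209d and Cd209a. It called Colq, Cd4, H2-Eb1, Lmln, Idua, Pigz, Tmem176b, Filip1l, Ermard and Oca2 as higher (DESeq2 adjusted p = 1.05e-19 for Colq and 4.68e-05 for Cd4). It called none of the 12 basal keratinocyte genes and none of the 14 stress keratin genes. Krt17 and Krt6b fell just short (DESeq2 adjusted p = 0.051 for each), and Krt6a and Krt16 were at 0.085 and 0.0999. By list, it called 6 of 18 laminin and integrin genes, 3 of 12 epidermal growth factor family genes and 3 of 7 stromelysins, collagenases and elastase as lower. It called 2 of 13 desmosome genes, 2 of 8 connexins and pannexins and 2 of 28 differentiated epidermis genes as lower. The same count was 3 of 20 for repair-associated and resident macrophages and 1 of 19 for keratinocyte antimicrobial proteins.

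In the lists not described so far, 0 to 21.1% of members had an unadjusted p under 0.05, against 7.68% of all genes. Of 18, 20 and 19 genes tested, 2 were lower and 0 higher in each of the interleukin-6 family and interleukin-20 subfamily, TGF-beta and activin signalling, and leptin, insulin and IGF signalling lists. Endothelium and angiogenic factors had 1 lower and 2 higher of 21 (14.3%), and complement and coagulation 1 lower and 3 higher of 19 (21.1%). When vehicle replicate 3 was left out, 0 complement and coagulation genes were higher, 0 leptin, insulin and IGF genes and 0 pericyte and smooth muscle genes were lower, and the interleukin-6 list had 3 lower and 1 higher. The cell cycle list, the hypoxia and glycolysis list and the pericyte and smooth muscle list each had 1 lower and 0 higher. For the hair follicle list this was 1 of 9, for the mitochondrially encoded mRNAs 1 higher of 13, and for the sebaceous gland and the Schwann cell and nerve lists 0. The interleukin-1 family had 1 lower and 1 higher of 15, Il33 and Il18.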

How the data were processed

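Total RNA, depleted of ribosomal RNA, was sequenced from day 3 wounds of 12 diabetic mice, 4 per group per the series' design text. The table deposited by the authors holds estimated counts, not normalized, for 29956 named genes. The submitters' processing notes name kallisto 0.48.0, FastQC 0.12.1, R 4.1.3, DESeq2 1.34.0 and GRCm39, without role. Summing to genes and the strand setting are not given in the sources used here. A row with no name (0.00909 to 0.0151% of counts) was left out.

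Estimates were rounded and fitted over all 12 libraries with edgeR 4.0.16 (R 4.3.3; TMM scaling, robust quasi-likelihood, filterByExpr with a minimum count of 10 and minimum total of 15, Benjamini-Hochberg adjusted p under 0.05). DESeq2 1.42.0 and limma-voom (limma 3.58.1), other scalings and filters, a replicate block and leaving out each library were alternatives. The edgeR steps were tested on simulated data. Intervals are at 95% and unadjusted. Replicates differed by more than counting noise (chi-square per degree of freedom 23.9 or more).

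The members and gene lists were chosen with earlier results of these data known. Genes were named if called, among the 15 smallest p-values per direction (mean of 1 CPM or more, no overlap), among the 4 smallest of a list, or if metalloproteinases, their inhibitors or neuromuscular junction genes. Lamb3, Hacl1, Eaf1 and Tcte3 were added after their values were seen. Of 764 list symbols 760 were found, 6 by an older name, and 737 were tested. Some items are not reported here.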

Additional observations from a re-analysis of the deposited data

Results flagged for a closer look

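In each group of 4 libraries, the highest or lowest library of a named gene was compared with the other 3 by Dixon's ratio, at its 95% critical value. It stood apart in 13 of 208 groups, where chance gives about 1 in 20. In the vehicle group, Colq was at 3.31 CPM in replicate 1 against 2.62 to 2.64 CPM in the others, still far below the A. faecalis libraries. Vehicle replicate 2 stood apart in Krt14, at 558 CPM against 848 to 900 CPM, and in Marco, at 76.4 CPM against 6.7 to 17 CPM. Vehicle replicate 3 stood apart in Lep at 2210 CPM against 227 to 398 CPM, in Cfd at 274 CPM against 42.2 to 67.9 CPM, in Timp4 at 161 CPM against 17.4 to 35.3 CPM, and in Gjb2 at 134 CPM against 161 to 166 CPM. Vehicle replicate 4 stood apart in Ccl24 at 12.3 CPM against 2.57 to 4.12 CPM, in Lamb3 at 88.6 CPM against 49.5 to 51.4 CPM, and in Nkg7 at 0.783 CPM against 1.3 to 1.37 CPM.

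With A. faecalis, replicate 1 had an Il33 level of 61.1 CPM against 79.1 to 80.1 CPM in the others and an Il17a level of 0.0338 CPM, 2 counts, against 0 counts. Rnase4 was at 202 CPM in A. faecalis replicate 3 against 186 to 188 CPM. No flag fell on Mmp10 in either group.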

How the results depend on the processing

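The count of 2 called genes was the same under DESeq2 size factors, upper-quartile scaling, limma-voom, no filter on low counts, a filter at a mean of 1 CPM, an adjusted p under 0.1, and fitting the 8 libraries alone. DESeq2's Wald test called 120 genes. Leaving out single libraries gave 2 to 10 calls: 10 without vehicle replicate 2 (among them Mmp10, Colq, Lama3, Dsc2, Fcna, Cd209d, Cd209f, Arnt2 and Pthlh), 7 without vehicle replicate 4, and Mmp10 and Colq in every such fit, with log2 fold changes of -2.09 to -1.89 and 1.56 to 1.75.

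Whether replicate numbers pair the samples is not stated and cannot be told from 4 libraries per group. The correlations of same-numbered A. faecalis and vehicle libraries' deviations from their group means were 0.07, 0.182, 0.146 and 0.17, all above 0. A. faecalis replicates 1 and 2 correlated best with vehicle replicates 3 (0.242) and 4 (0.207). With the replicate block in the fit of 12 libraries 2 genes were called. With the replicate block in the fit of only 8 libraries, edgeR called 0 genes (1470 at an unadjusted p under 0.05), with Mmp10 at -1.93 and Colq at 1.65 (edgeR adjusted p = 0.188 for each).

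Of 2172 log2 fold changes of 104 genes named in the text under these alternatives, 2128 kept their direction and side of the threshold, 37 passed it (32 under DESeq2's Wald test and 5 without vehicle replicate 2), 2 lost it (Mmp10 and Colq, above), and 5 changed sign. Leaving out single libraries, Timp4 ranged from -1.37 to 0.20, Lep from -1.47 to 0.14 and Lamb3 from -0.27 to 0.17. The sign changed for Timp4 (0.20) and Lep (0.14) without vehicle replicate 3, and for Lamb3 at 0.17 without vehicle replicate 4, 0.11 without A. faecalis replicate 1 and 0.054 without A. faecalis replicate 3. The cause was not tested. Per CPM of Krt14, an alternative chosen after seeing the data, Mmp10 was at -1.03 (exact permutation p = 0.0571, adjusted p = 0.446 over 13 genes). Mmp13 was at -1.14, Lama3 at -0.51, Dsc2 at -0.49, Gjb2 at -0.36, Hbegf at 0.05 and Areg at 0.22. Of 1008 list medians, 1000 moved by less than the spread between replicates. Genes near or under 1 CPM, such as Il17a, Ccl17 and Cd8b1, are limited by depth.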
